A study of Mus musculus with 36 samples.

Results

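The 9 genes described here are Acod1 and 8 genes of the citric acid cycle and of citrate export: Cs, Idh1, Idh2, Idh3a, Ogdh, Fh1, Mdh2 and Slc25a1. They were listed by name, with earlier results of these data known, and were found among the 54232 Ensembl gene identifiers of the count files by their mouse symbols. All 9 were among the 12957 genes that passed the filter on low counts. Their messenger RNA was followed over 6 groups of mouse bone marrow-derived macrophages, cells grown from bone marrow for 5 days with 20 ng/mL of macrophage colony-stimulating factor. The groups, with 6 libraries each, joined 1 of 2 genotype labels, WT (the wild type, whose strain the submitters spell C65BL6) or NOS1 KO, with 1 of 3 treatments, which were control, 100 ng/mL of lipopolysaccharide (LPS, a bacterial cell wall product that activates macrophages) for 2 h, or the same for 8 h. In 1 library of each group, replicate 6, the genotype label carries the prefix BMDM (BMDM WT or BMDM NOS1 KO), and these were grouped with the others of their genotype. The labels name no animal, pool, clone or batch.

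The citric acid cycle oxidises acetyl groups in mitochondria and supplies building blocks for other pathways. Citrate synthase (Cs) makes citrate, which is turned into isocitrate by way of cis-aconitate, and isocitrate dehydrogenases, the oxoglutarate dehydrogenase complex, fumarase and malate dehydrogenase carry the carbon onwards. Aconitate decarboxylase (Acod1) takes cis-aconitate out of the cycle and makes itaconate, a metabolite known from activated macrophages that inhibits succinate dehydrogenase and restrains inflammation. The carrier Slc25a1 moves citrate from mitochondria to the cytosol, where it feeds lipid synthesis.

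Library totals ran from 8953489 to 18482551 counts. Nos1, the gene in the KO label, went against that label, with 10 to 83 counts in each KO-labelled library and 0 to 8 in each WT-labelled library, so groups are named by their labels and every direction between them rests on those labels. No label names them, but 2 sets of libraries stood apart on the first principal component of all tested genes: replicates 1, 2 and 6 of every group (set A) and the other 3 (set B, replicates 3, 4 and 5). Because the sets were drawn from these same counts, p-values within a set or with the set as a term may be too small. They are given only as a description. Of 10 macrophage markers, all were detected in every group and summed to between 12904 and 22742 CPM (the count of a gene relative to the TMM-scaled total of its library), and 10 B and T cell markers summed to at most 4.85 CPM. The markers of other cells reached 349.9 CPM (10 neutrophil genes), 270 (8 erythroid and megakaryocyte genes), 193.7 (8 stromal and fat cell genes) and 56.3 (8 dendritic cell genes). At 8 h of LPS, 3 of 5 tested dendritic cell markers rose under each label, as did 4 of 4 stromal and fat cell markers under the WT label and 3 of 4 under the KO label; their part in the results was not tested. The sum of 16 skeletal muscle markers passed 100 CPM in 4 WT-labelled libraries, with 5037 CPM in replicate 5 at 8 h, 142 in replicate 6 at 8 h, 602.6 in replicate 6 at 2 h and 231.7 in replicate 5 at 2 h. In bulk RNA, fewer cells of a type and less RNA per cell cannot be told apart.

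Acod1 rose under both genotype labels from a few CPM in controls to a mean of 10657 CPM (WT label) and 10918 CPM (KO label) at 8 h. Acod1 (ENSMUSG00000022126, mm10 chromosome 14, 103046977 to 103056573, plus strand) stood at 0.663 CPM in the lowest, 1.71 at the median and 5.94 in the highest of the 6 WT-labelled control libraries, from 10 to 70 counts each. After 2 h of LPS the lowest, median and highest libraries held 1139, 2058 and 2736 CPM. After 8 h they held 9086, 10719 and 11825 CPM. No library of 1 treatment overlapped with those of another. The increase over control was 972-fold at 2 h (log2 fold change 9.92 ± 0.50, SE; edgeR adjusted p = 8.81e-18) and 5221-fold at 8 h (12.35 ± 0.54; adjusted p = 4.88e-20). From 2 to 8 h it rose a further 5.37-fold (2.43 ± 0.35; adjusted p = 2.76e-07).

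In KO-labelled libraries Acod1 followed the same order of treatments. The control libraries ran from 0.793 CPM over a median of 3.09 to 10.72 CPM. The libraries at 2 h ran from 1068 over 1880 to 2376 CPM, and those at 8 h from 9250 over 10836 to 12048 CPM. Again the 3 treatments did not overlap. The log2 fold changes were 8.69 ± 0.47 at 2 h (edgeR adjusted p = 6.71e-17), 11.27 ± 0.52 at 8 h (1.54e-19) and 2.58 ± 0.35 between 8 and 2 h (9.13e-08). The size of the change depended on the few Acod1 counts of the controls. WT-labelled control replicate 3 held the highest level of its group, 5.94 CPM, and the next was 1.92 CPM; without it the WT-labelled values were 10.53 at 2 h and 12.95 at 8 h. Within set A the WT-labelled values were 10.86 and 13.35, and within set B 9.46 and 11.85.

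**Figure D1:**
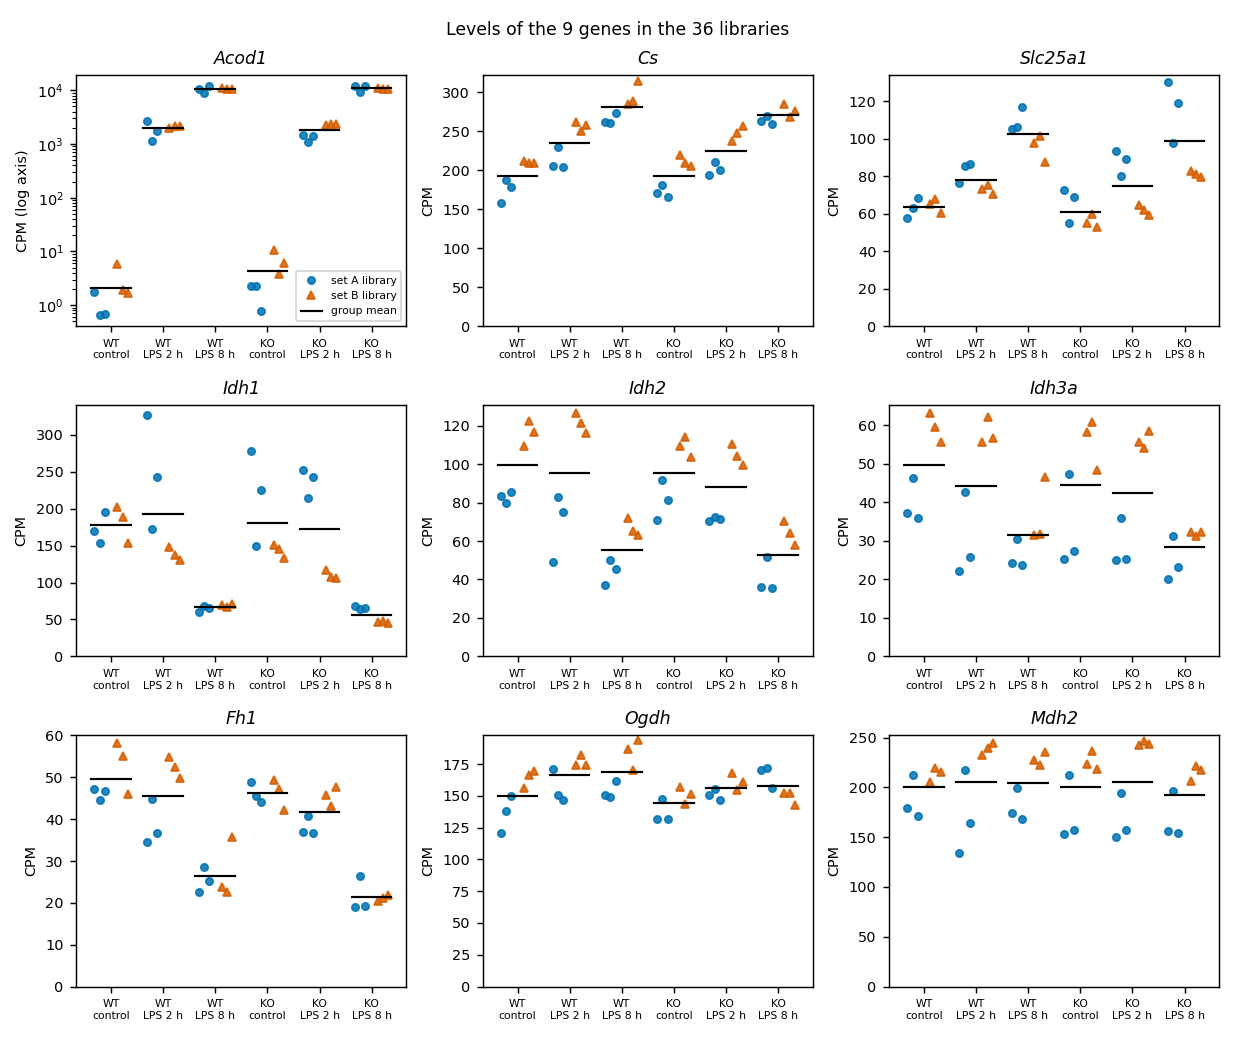
CPM of each of the 9 genes in every library, by genotype label and treatment; circles are set A, triangles set B and lines group means. Acod1 has a log axis, where treatments do not overlap, from 0.663 to 10.72 CPM in controls to at least 9086 CPM at 8 h; the other axes start at 0.

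The promoter windows of these genes differed in the letters that precede the start. RefSeq windows on GRCm38.p6, from 250 bases before to 50 after each start, were matched by symbol for 8 of the 9 genes, all but Idh3a, in 14 windows, since Idh1 has 2 and Ogdh has 6. They were searched on both strands for TATAAA (the TATA box), GGGCGG (the GC box, bound by Sp factors) and CACGTG (the E box). GAAANNGAA (the core of the interferon response element) was searched on both strands too. The kappa-B consensus bound by NF-kB was searched only as read along the strand of the gene. Shown are the windows of Acod1, the gene that rose most, of Idh1, which fell most, and of Slc25a1, which rose mildly, each 5′ to 3′ up to the start or just short of it. Capitals mark the TATA box, the GC box on either strand and the kappa-B match.
Acod1, chr14:103046762-103047006, plus strand: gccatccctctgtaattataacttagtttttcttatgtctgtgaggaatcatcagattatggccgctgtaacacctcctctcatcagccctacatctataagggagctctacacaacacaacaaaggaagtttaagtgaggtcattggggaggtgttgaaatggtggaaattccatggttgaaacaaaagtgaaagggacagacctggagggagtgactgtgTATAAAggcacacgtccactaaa
Idh1, chr1:65186480-65186729, minus strand: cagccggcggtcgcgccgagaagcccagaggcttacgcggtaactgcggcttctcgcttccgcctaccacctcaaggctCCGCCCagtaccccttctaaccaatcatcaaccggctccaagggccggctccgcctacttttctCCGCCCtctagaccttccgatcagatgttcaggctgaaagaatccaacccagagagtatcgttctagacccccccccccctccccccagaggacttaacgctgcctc
Slc25a1, chr16:17928220-17928469, minus strand: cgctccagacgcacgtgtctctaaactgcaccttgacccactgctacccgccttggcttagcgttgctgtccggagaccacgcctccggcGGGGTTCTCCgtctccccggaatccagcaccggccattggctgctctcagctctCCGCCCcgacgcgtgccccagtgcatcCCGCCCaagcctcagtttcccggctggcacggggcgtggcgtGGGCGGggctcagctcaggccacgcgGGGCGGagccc
Acod1 was the 1 gene of these 8 with TATAAA, 28 bases before its RefSeq start, a motif in 13.6% of all 32851 windows, and the 1 gene with no GC box in any window, a motif in 35.7% of them. By the gene start given above for Acod1, 103046977, its TATAAA match lies just inside the gene. Read along the strand of the gene, the kappa-B consensus was found in the Slc25a1 window, 160 bases before the start. It was in no window of the other 7 genes and in 5.89% of all windows. The opposite strand was not searched for it. The interferon response core was in none of the 14 windows (8.56% of all). The E box was in the Slc25a1 window and in 3 of the 6 Ogdh windows (7.15% of all). A match is only a run of letters, and a window without one says nothing about regions farther away.

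Compared per kilobase of exon, Acod1 overtook all 8 other genes by 2 h. In WT-labelled controls the order, in CPM per kilobase (mean ± SD, n = 6), began with Idh1 (64.0 ± 7.68) and Mdh2 (56.3 ± 5.68), whose ranges overlapped. Below these came Idh2 (38.5 ± 7.26), Cs (33.2 ± 3.76), Slc25a1 (29.5 ± 1.89) and Ogdh (27.5 ± 3.36), where each gene overlapped with the next. Fh1 (14.6 ± 1.65), Idh3a (9.77 ± 2.28) and Acod1 (0.803 ± 0.746) each stood apart from the gene above. KO-labelled controls gave the same order. At 8 h, Acod1 was at 4063 ± 343 and the next gene, Mdh2, at 57.3 ± 7.96, both in WT-labelled libraries, where Idh1 had dropped to the sixth place with 24.2 ± 1.33. In KO-labelled libraries at 8 h Idh1 (20.3 ± 3.84) was the seventh, with a range that overlapped with that of Idh2 (20.3 ± 5.58). With the length of the longest transcript in place of all exons, Mdh2 came before Idh1 and Cs before Idh2 in both controls, and Idh3a (19.2) came before Fh1 (18.8) in WT-labelled controls.

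As a share of the summed level per kilobase of the 9 genes, Acod1 held 0.283% ± 0.243 in WT-labelled controls, 71.1% ± 5.86 at 2 h and 94.3% ± 0.602 at 8 h (SD, n = 6 each). In KO-labelled libraries the shares were 0.606% ± 0.490, 70.3% ± 7.25 and 94.8% ± 0.578 (SD, n = 6 each). The sum of the other 8 genes per kilobase was 273 ± 24.6, 293 ± 9.98 and 244 ± 18.3 in WT-labelled libraries, and 268 ± 10.9, 277 ± 4.18 and 228 ± 5.67 in KO-labelled ones (CPM per kilobase, SD, n = 6 each).

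**Figure D2:**
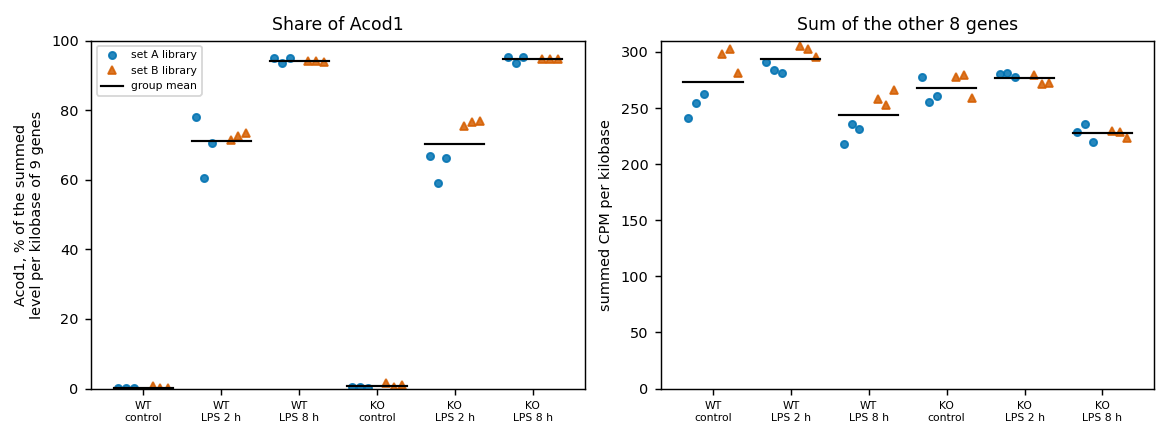
Left, percentage of the summed level per kilobase of the 9 genes that Acod1 held in each library; right, the sum of the other 8 genes in CPM per kilobase, with both axes from 0. The share is at most 1.45% in every control and at least 93.6% in every library at 8 h, and the sum of the others stays between 218.2 and 305.6.

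The steps that make and export citrate were higher after LPS, relative to other genes. Cs (ENSMUSG00000005683, chromosome 10, 128337734 to 128362479), which joins acetyl-CoA to oxaloacetate, ran from 157.7 over a median of 198 to 211.4 CPM in WT-labelled controls, from 203.7 over 240.6 to 261.6 at 2 h and from 261.1 over 279 to 314.9 at 8 h. The 8 h libraries were all above the controls, while those at 2 h overlapped with them. The log2 fold change was 0.29 ± 0.09 at 2 h (edgeR adjusted p = 0.00668) and 0.55 ± 0.09 at 8 h (8.13e-07), with 0.22 ± 0.09 (0.0398) and 0.49 ± 0.09 (4.8e-06) in KO-labelled libraries. These rises are on the TMM scale, a scaling that assumes that most genes do not change. Scaled by library totals alone, Cs stood at -0.01 at 2 h and -0.22 at 8 h in WT-labelled libraries. In KO-labelled libraries it stood at -0.07 and -0.33. Only the values at 8 h were called lower (edgeR adjusted p = 0.0296 and 0.00166). Copies of Cs with 91.9% and 92.1% identity over 1522 and 469 aligned bases took 14 and 17 counts over all libraries against 102466 for Cs itself.

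Slc25a1 (ENSMUSG00000003528, chromosome 16, 17925223 to 17928219, minus strand), the citrate carrier, showed the larger of these rises. Its WT-labelled controls ran from 57.9 over 64.1 to 68.3 CPM, the 2 h libraries from 70.6 over 75.7 to 86.5 and the 8 h libraries from 87.8 over 103 to 117. The treatments did not overlap in WT-labelled libraries. At 2 h the log2 fold change was 0.29 ± 0.12 with an adjusted p of 0.0513 in edgeR, just short of the threshold of 0.05. With the library set as a term edgeR gave 0.28 (0.00764), and calls were made within set A (0.0136) and set B (0.0118). The sets were drawn from these same counts, so these p-values do not settle the call. At 8 h the log2 fold change was 0.68 ± 0.12 (4.09e-06). KO-labelled libraries gave 0.30 ± 0.12 (0.0457) and 0.70 ± 0.12 (3.01e-06). On library totals alone the 4 values were -0.02, -0.09, -0.00 and -0.14, none of them called. Without the 4 libraries that hold muscle RNA, the KO-labelled call at 2 h was lost (0.0516), and of 12 fits that each left out 1 library of the groups compared, 6 ended the KO-labelled call of Cs at 2 h and 7 that of Slc25a1.

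The 3 isocitrate dehydrogenase genes described here, Idh1, Idh2 and Idh3a, fell by 8 h, and none of them was called at 2 h in the fit of all libraries. Idh1 (ENSMUSG00000025950, chromosome 1, 65158616 to 65186500, minus strand) encodes the cytosolic and peroxisomal enzyme, which makes NADPH. It ran from 153.5 over 179 to 202.8 CPM in WT-labelled controls and from 60.7 over 67.5 to 71.2 CPM at 8 h. This fall was -1.40 ± 0.23 on the log2 scale (adjusted p in edgeR, 1.56e-06). In KO-labelled libraries the controls ran from 133 over 149.6 to 278.3 and the 8 h libraries from 44.9 over 56.4 to 68.1 CPM (-1.68 ± 0.23; 6.61e-08). Control and 8 h libraries were apart under both labels. At 2 h the libraries spread widely, from 131.1 to 326.7 CPM under the WT label and from 105.8 to 251.8 under the KO label.

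Idh2 (ENSMUSG00000030541, chromosome 7, 80094846 to 80115392, minus strand), the mitochondrial NADP-dependent enzyme, also fell with no overlap between 8 h and control. WT-labelled controls ran from 79.6 over 97.5 to 122.5 CPM and the 8 h libraries from 37.4 over 56.7 to 71.8. The log2 fold change was -0.84 ± 0.20 (edgeR adjusted p = 0.000417), and -0.86 ± 0.20 (0.000337) in KO-labelled libraries.

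Idh3a (ENSMUSG00000032279, chromosome 9, 54586334 to 54604661), the catalytic subunit of the NAD-dependent enzyme of the cycle proper, fell less firmly. WT-labelled controls ran from 35.8 over 51.0 to 63.1 CPM and the 8 h libraries from 23.7 over 31.0 to 46.5, so the groups overlapped. The log2 fold change at 8 h was -0.66 ± 0.26 (edgeR adjusted p = 0.0226) and -0.65 ± 0.26 (0.0238) in KO-labelled libraries. The WT-labelled call ended without WT-labelled control replicate 3 (0.0548), 8 h replicate 1 (0.0525) or 8 h replicate 6 (0.053), and the KO-labelled call without KO-labelled control replicates 3 (0.061) or 4 (0.0682) or 8 h replicate 1 (0.0594). Within set A neither call was made (0.0554 and 0.176). The highest WT-labelled library at 8 h, replicate 5, is the one with 5037 CPM of muscle markers. Without the 4 libraries with muscle RNA the WT-labelled value was -0.75 (0.0207).

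Of the later steps, Fh1 fell, while Ogdh and Mdh2 were not called in the fit of all libraries. Fh1 (ENSMUSG00000026526, chromosome 1, 175600374 to 175625635, minus strand) encodes fumarase, which hydrates fumarate to malate. Its WT-labelled controls ran from 44.7 over 46.9 to 58.2 CPM and the 8 h libraries from 22.5 over 24.5 to 35.7, with no overlap. The log2 fold change was -0.91 ± 0.11 (edgeR adjusted p = 1.17e-08), and -1.12 ± 0.12 (1.56e-10) in KO-labelled libraries, where the 8 h libraries ran from 18.9 to 26.5 CPM. Here too the highest 8 h library, at 35.7 CPM, is WT-labelled replicate 5, and without the 4 libraries with muscle RNA the WT-labelled change was -1.03 (6.82e-09). The Fh1 gene overlaps Kmo on the opposite strand, with 0 exon bases shared.

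Ogdh (ENSMUSG00000020456, chromosome 11, 6291633 to 6356642), a subunit of the complex that turns oxoglutarate into succinyl-CoA, stood at 150 ± 18.3 CPM in WT-labelled controls and 169 ± 18.6 at 8 h (SD, n = 6 each). The libraries of both groups overlapped. The difference of 0.17 ± 0.08 on the log2 scale had an adjusted p of 0.0523 in edgeR, and its 95% interval ran from 0.02 to 0.32. It was called with the library set as a term (0.17; 0.0218) and within set B (0.18; 0.00201), and the KO-labelled difference within set A (0.28; 0.0132). Mdh2 (ENSMUSG00000019179, chromosome 5, 135778480 to 135790398), the mitochondrial malate dehydrogenase, stood at 201 ± 20.2 and 204 ± 28.3 CPM (SD, n = 6 each). The change on the log2 scale was 0.03 ± 0.15, with an interval from -0.26 to 0.31 (adjusted p = 0.879). Within set B, Mdh2 was called in WT-labelled libraries at 2 h (0.17; 0.00252) and 8 h (0.12; 0.0248) and in KO-labelled ones at 2 h (0.11; 0.0448). On library totals alone, both genes were lower and called at 8 h, at -0.60 and -0.74.

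**Figure D3:**
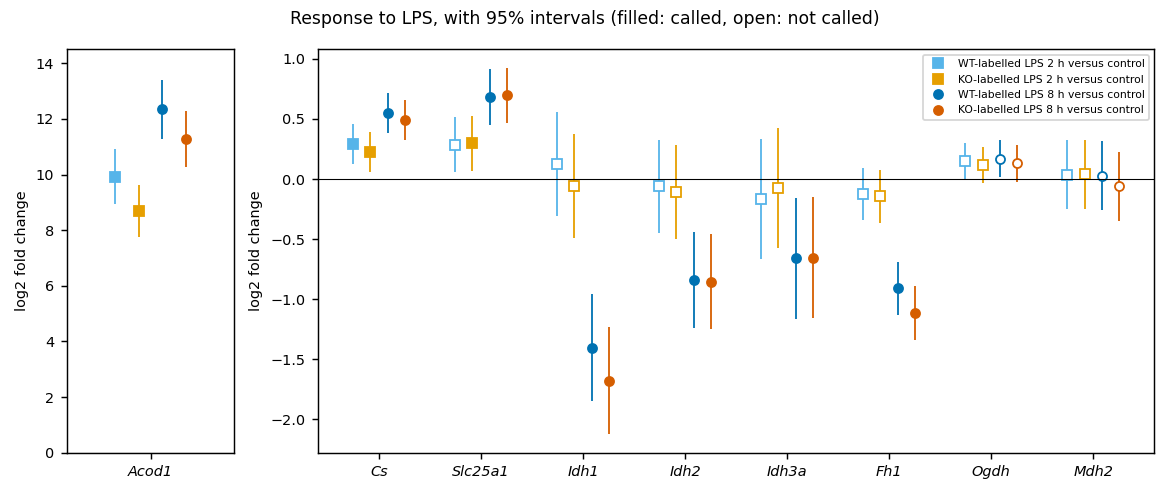
Log2 fold change of LPS against control for Acod1 (left, axis from 0) and the other 8 genes (right), with 95% intervals; squares are 2 h, circles 8 h, and filled symbols passed edgeR's adjusted p of 0.05. Cs and Slc25a1 lie above 0 and Idh1, Idh2, Idh3a and Fh1 below 0 at 8 h under both labels, on the TMM scale.

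Counted over the 9 genes, 2 rose and 0 fell at 2 h in WT-labelled libraries, where 37.9% of all tested genes were called. At 8 h, 3 rose and 4 fell, where 71.2% of all genes were called, and against 2 h 3 rose and 3 fell (62.8% of all). In KO-labelled libraries the counts were 3 and 0 at 2 h (35.2% of all), 3 and 4 at 8 h (72.1%) and 3 and 4 between 8 and 2 h (65.2%). At 8 h the share of the 9 genes called, 7 of 9 under each label, is near that of all genes. The median log2 fold change of the 9 genes at 8 h was 0.03 in WT-labelled and -0.06 in KO-labelled libraries, beside -0.06 and -0.06 over all genes tested. These tallies depend on the scaling: on library totals alone, 1 of the 9 rose, Acod1, and 7 fell at 8 h under each label. On that scale 11029 of all 12957 genes were called at 8 h under the WT label, 19.9% of them higher. Under the KO label 11096 were called, 19.5% of them higher.

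Between 2 and 8 h, Idh1, Idh2 and Fh1 fell on the TMM scale. None of these was called at 2 h in the fit of all libraries. On library totals alone, Fh1 was already lower at 2 h, at -0.42 (edgeR adjusted p = 0.00384, WT label) and -0.44 (0.00311, KO label). Within set B, Idh1 was already lower at 2 h, as given below. From 2 to 8 h Idh1 fell by 1.53 (edgeR adjusted p = 5.13e-07), Idh2 by 0.78 (0.00113) and Fh1 by 0.79 (2.94e-07) on the log2 scale in WT-labelled libraries. On the TMM scale Cs rose further by 0.26 (0.00896) and Slc25a1 by 0.40 (0.00364). On library totals alone Cs was lower, at -0.21 (edgeR adjusted p = 0.0446), and Slc25a1 stood at -0.07 and was not called. Idh3a was at -0.49 ± 0.26 (0.0941), not called in the fit of all libraries but called with the library set as a term (-0.45; 0.0119) and within set B (-0.66; 3.2e-05). In KO-labelled libraries its -0.58 ± 0.26 was called (0.0479). The KO-labelled call was lost within set A (0.528) and in 8 of 12 fits that each left out 1 library of the groups compared. Without the 4 libraries with muscle RNA, the WT-labelled call of Cs between 8 and 2 h was lost (0.0869).

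The genotype labels were compared to ask whether KO-labelled macrophages differ in these genes. None of the 9 genes was called by edgeR between KO-labelled and WT-labelled libraries in controls (0.123% of all genes called), at 2 h (0.0232%) or at 8 h (0.1%), and none had a different LPS response by the interaction at 2 h or at 8 h (0% of all genes in each). At an unadjusted p below 0.05, Acod1 was counted in controls and in the interaction at 2 h, and Fh1 at 8 h, where 2.99%, 1.18% and 9.28% of all genes were counted. DESeq2 and limma-voom also called 0 of 9 in all 5 comparisons, where few of all 12957 genes were called. In the same order of comparisons, DESeq2 called 86, 5, 94, 0 and 4 of these, and limma-voom 3, 4, 29, 0 and 0. The control level of Acod1 was 2.11 ± 1.96 CPM under the WT label and 4.35 ± 3.61 under the KO label (SD, n = 6 each), with overlapping libraries, a log2 difference of 1.11 ± 0.42 (adjusted p = 0.873). Its level at 8 h was 10657 ± 899 and 10918 ± 993 CPM (SD, n = 6 each), a log2 difference of 0.03 with an interval from -0.62 to 0.69. The difference of Fh1 at 8 h was -0.31 ± 0.12 (adjusted p = 0.346), from 26.4 ± 5.09 to 21.3 ± 2.78 CPM (SD, n = 6 each). For Cs the interval of the difference at 8 h ran from -0.22 to 0.11, and for Idh1 from -0.69 to 0.19.

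The 2 library sets also separated several of these genes within groups. The sets were drawn from all tested genes, these 9 included, so the following is a description. How many of all tested genes the sets separate in this way was not counted. Idh2 was higher in all 3 set B libraries than in all 3 set A libraries in 6 of 6 groups. Cs, Idh3a and Mdh2 showed the same in 5 of 6 groups. Slc25a1 was higher in set A with no overlap in 4 of 6 groups and Idh1 in 3 of 6. The other genes were less regular. Ogdh was higher in set B in 3 groups and in set A in 1, and Fh1 and Acod1 were each higher in set B in 2 of 6. In KO-labelled cells at 2 h, for example, Idh1 was at 251.8, 214 and 242.3 CPM in set A and at 116.4, 108 and 105.8 CPM in set B.

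Idh1 differed in direction between the sets at 2 h. Within set A its log2 fold change at 2 h was 0.52 (edgeR adjusted p = 0.0538) under the WT label and 0.12 (0.708) under the KO label. Within set B it fell, by 0.38 (3.96e-05) and by 0.37 (7.47e-05). The difference between the sets was not tested. Of the 9 genes, 5 were called within set B at 2 h under the WT label and 4 under the KO label, where 50.7% and 47.9% of all genes were called. At 8 h the fall of Idh1 was found in both sets, at -1.41 and -1.37 under the WT label and at -1.72 and -1.61 under the KO label.

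Comparisons of the genotype labels also depended on the set. Within set A, 0 of the 9 genes were called in controls, at 2 h or at 8 h, where 0.0548%, 0.0704% and 0.0548% of all genes were called. Within set B, 2, 3 and 3 of the 9 were called, all lower under the KO label, where 10.8%, 10.8% and 31.4% of all genes were called. Idh1 was lower by 0.33, 0.32 and 0.57 on the log2 scale in set B (edgeR adjusted p = 0.00129, 0.00207 and 4.68e-06), and its set B libraries at 8 h were at 69.6, 66.5 and 71.2 CPM under the WT label and 46.8, 48.4 and 44.9 CPM under the KO label. Slc25a1 was lower by 0.19, 0.23 and 0.24 (0.0401, 0.00967 and 0.00256). Idh2 was called at 2 h (-0.20; 0.0224) and Ogdh at 8 h (-0.31; 1.9e-05). Of the interactions at 8 h within set B, Mdh2 passed with -0.19 (0.0469), where 16.7% of all genes were called. With 3 libraries a group and no label for the sets, what set them apart was not tested.

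**Figure D4:**
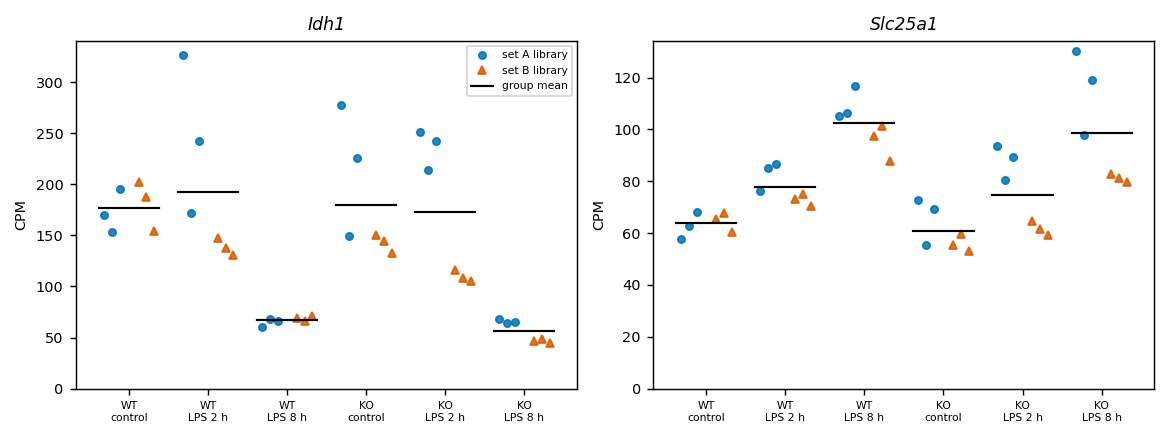
CPM of Idh1 and Slc25a1 in each library by group, with axes from 0, circles for set A, triangles for set B and lines for group means. At 8 h the set B libraries of Idh1 lie between 66.5 and 71.2 CPM under the WT label and between 44.9 and 48.4 CPM under the KO label, while the set A libraries of both labels lie between 60.7 and 68.4 CPM.

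The rest of the pathway was taken from 6 lists with 62 genes. Their counts stand beside 34.2% of all genes higher and 37% lower at 8 h in WT-labelled libraries, and 34.9% and 37.1% in KO-labelled ones, on the TMM scale. On library totals alone, 11029 of all 12957 genes were called at 8 h under the WT label, 19.9% of them higher. Under the KO label that scale called 11096, 19.5% of them higher. Among the 14 other enzymes of the cycle, 2 rose and 0 fell at 2 h in WT-labelled libraries, where 20.3% of all genes were higher and 17.6% lower. At 8 h, 4 of these enzymes rose and 4 fell under the WT label, and 2 rose and 4 fell under the KO label. Dld, the dihydrolipoamide dehydrogenase shared by the pyruvate and oxoglutarate complexes, rose by 0.71 ± 0.06 at 8 h on the TMM scale (edgeR adjusted p = 2.13e-12). Sucla2, another succinyl-CoA ligase subunit, rose by 0.23 ± 0.07 (0.00752), with -0.54 on library totals alone. On library totals alone, 0 of the 14 rose and 13 fell at 8 h under each label, and Dld was at -0.06 in WT-labelled libraries. Suclg2, a succinyl-CoA ligase subunit, fell by 1.13 (1.08e-08), the cytosolic aconitase Aco1 by 0.57 (4.4e-07) and the subunit Idh3g by 0.47 (2.43e-06). The 4 succinate dehydrogenase genes, Sdha to Sdhd, were not called under either label, with values from 0.02 to 0.13 in WT-labelled libraries.

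Of 8 tested carriers of the mitochondrial membrane, 4 rose and 1 fell at 8 h in WT-labelled libraries, and 4 rose and 2 fell in KO-labelled ones. Scaled by library totals, 2 rose and 4 fell, and 2 rose and 5 fell. Slc25a22, a glutamate carrier, went from 27.6 ± 5.34 to 326 ± 63.4 CPM (SD, n = 6 each; log2 3.56 ± 0.21, edgeR adjusted p = 1.02e-16). Slc25a12, an aspartate and glutamate carrier, went from 40.6 ± 3.24 to 210 ± 38.2 CPM (2.37 ± 0.10; 4.08e-21), while Slc25a13, the other carrier of that kind, went from 56.1 ± 8.39 to 12.2 ± 2.44 CPM (-2.21 ± 0.15; 1.85e-15). These 2 carriers moved in opposite directions, also on library totals alone (1.59 and -2.98) and in KO-labelled libraries (2.41 and -2.13). Slc25a18 rose by 1.29 (0.000508), but was not called within set A or on library totals alone.

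Of 15 tested genes that bring pyruvate into the cycle, 3 rose and 5 fell at 8 h in WT-labelled libraries and 2 and 6 in KO-labelled ones. With library totals alone as the scale, 1 rose and 13 fell under each label. Pdk3, a kinase that inhibits pyruvate dehydrogenase, rose by 1.32 ± 0.16 (edgeR adjusted p = 9.69e-09), and Mpc1, a subunit of the pyruvate carrier, by 0.72 ± 0.16 (0.000178; -0.05 on library totals alone). Pck2, the mitochondrial phosphoenolpyruvate carboxykinase, fell from 60.7 ± 7.69 to 8.87 ± 0.957 CPM (SD, n = 6 each; -2.78 ± 0.14, 2.27e-18). Pdk1 fell by 1.11 (2.76e-07) and the malic enzyme Me2 by 1.04 (6.96e-05). Me1, the cytosolic malic enzyme, rose by 0.40 in WT-labelled libraries (0.00231; -0.36 on library totals alone), stood at -0.03 in KO-labelled ones (0.827), and was the only gene of the 62 called between the genotype labels at 8 h (-0.58 ± 0.12; 0.0274).

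Of 13 tested genes of glutamine and aspartate routes, 1 rose and 8 fell at 8 h in WT-labelled libraries and 2 and 9 in KO-labelled ones. The share called in either direction was near that of all genes in WT-labelled libraries (71.2%), while 72.1% were called under the KO label. By direction, 37% of all genes were lower under the WT label and 37.1% under the KO label. The median log2 fold change of the list was -0.98 and -0.87 on the TMM scale. The counts on library totals alone were 1 and 12 under each label. Ass1, argininosuccinate synthase, rose from 11.7 ± 1.76 to 101 ± 34.7 CPM (SD, n = 6 each; log2 3.11 ± 0.31, edgeR adjusted p = 9.32e-11). The glutamine transporter Slc1a5 fell by 1.90 (8.97e-13) and the amino acid transporter Slc38a2 by 1.50 (3.66e-09). Slc38a2 had risen at 2 h, by 1.36 ± 0.17 (6.06e-08).

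The list for citrate use in the cytosol has 5 genes, among them genes of acetate use and fatty acid synthesis. Of these 5, 2 rose and 1 fell at 8 h under each label. On library totals alone 1 rose and 3 fell (WT label) and 0 rose and 3 fell (KO label). Acss2, which makes acetyl-CoA from acetate, rose by 1.33 ± 0.26 (edgeR adjusted p = 2.38e-05) and Acly, ATP citrate lyase, by 0.28 ± 0.09 (0.00561; -0.49 on library totals alone). Fasn, fatty acid synthase, fell by 1.24 ± 0.31 (0.000741), but its fall was not called within set A (-0.49). The last list holds 4 genes assigned to itaconate breakdown, and their part in it was not tested. Sugct rose by 1.46 ± 0.43 (0.00296, and below the count filter within set B) in WT-labelled libraries. There Lactb2, Clybl and Auh fell by 1.18 (2.49e-11), 0.42 (0.00932) and 0.36 (0.015). On library totals alone, 0 rose and 3 fell under each label. In KO-labelled libraries 1 rose and 1 fell, and Clybl (-0.24) and Auh (0.00) were not called.

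**Figure D5:**
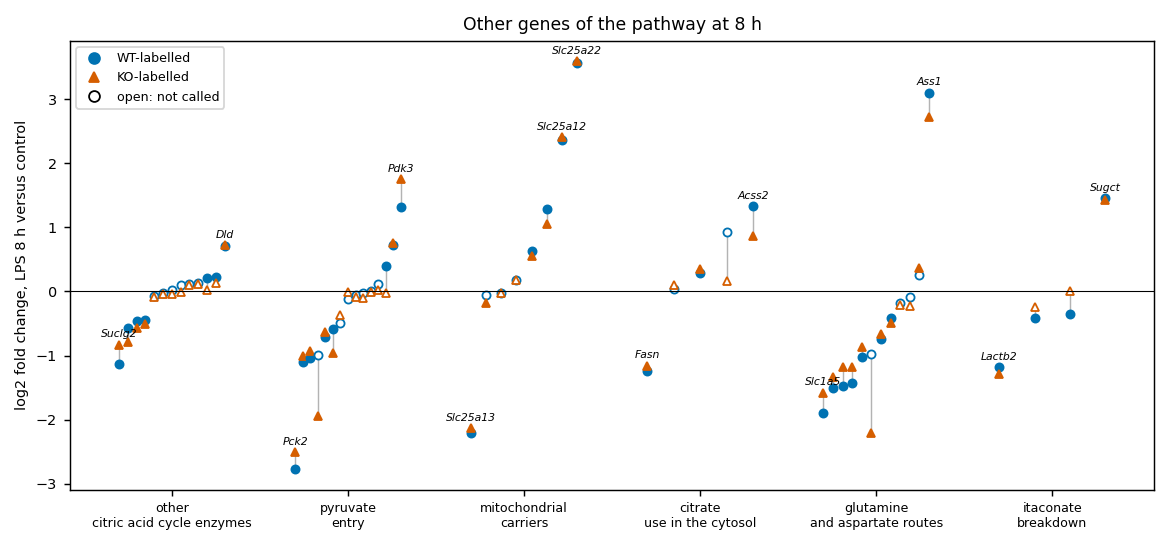
Log2 fold change at 8 h of LPS for the other pathway genes reported here, by list, with circles for WT-labelled and triangles for KO-labelled libraries joined by a line; filled symbols passed edgeR's adjusted p of 0.05. Slc25a22 (3.56), Ass1 (3.11) and Slc25a12 (2.37) are highest and Pck2 (-2.78) is lowest in WT-labelled libraries.

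Genes with a pattern most like that of Acod1 were sought by the root mean square difference of the 6 group means of log2 CPM, each gene centred on its own mean, over 9321 genes. The 5 closest were Il1b (0.399), Cxcl10 (0.428), Il12b (0.473), Ccl5 (0.672) and Gbp5 (0.776), which encode 2 cytokines or cytokine subunits, 2 chemokines and a guanylate-binding protein. The 5 closest to Idh1 were Mt1 (0.057), Galc (0.059), Ifrd2 (0.061), Man2a2 (0.064) and Zbtb44 (0.070).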

How the data were processed

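The authors deposited 1 file of raw gene counts per library, made with HTSeq on mm10 per the submitters' processing notes. Aligner, annotation and strandedness: not given in the sources used here. Identifiers were named from GENCODE M21 (54165 of 54232 matched). Genes were kept by edgeR's filterByExpr over the 6 groups, scaled by TMM, and tested in 1 model of all 36 libraries with edgeR 4.0.16 (quasi-likelihood F test, robust, R 4.3.3), with Benjamini-Hochberg adjustment over all 12957 genes and a threshold of 0.05. CPM uses the TMM-scaled totals, and levels between genes are per kilobase of exon. SE is the log2 fold change over the square root of F, and intervals (95%) are the estimate ± 1.96 SE.

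Groups follow the labels. Because these name no animals or cultures, p-values measure only the spread between libraries, which may be technical. Over 90 pairs of replicates, the chi-square per gene was at least 2.155, so no library was merged. The 9 genes, the other lists and the library sets were chosen with earlier results of these data known. Other pathway genes were named by a rule: up to 3 called in each direction per list, by the largest change at 8 h in WT-labelled libraries; Slc38a2 at 2 h, the Sdh genes and Me1 between labels were added after their values were seen. A few genes that the rule would name are counted in their lists but not reported here. Alternatives were DESeq2 1.42.0 (test and size factors), limma-voom (limma 3.58.1), library totals, 2 other count filters, the set as a term, each set alone, only the groups compared, and leaving out the BMDM-labelled libraries, those with muscle RNA, or each library. The scripts were tested on simulated counts; there DESeq2 gave more false calls than its nominal rate, and the limit set for passing was then applied to edgeR and limma-voom only.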

Additional observations from a re-analysis of the deposited data

Results flagged for a closer look

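Of 54 sets of 6 libraries (9 genes in 6 groups), 2 held a library far from the others by Dixon's test (critical value 0.625), where chance gives about 1 in 20. Acod1 in WT-labelled control replicate 3 was at 5.944 CPM, the next library at 1.918 CPM, a gap of 0.762 of the group's range. Idh3a in WT-labelled 8 h replicate 5 was at 46.5 CPM, the next at 31.67 CPM, a gap of 0.651 of the range; this library held 5037 CPM of skeletal muscle markers, whose part in the value was not tested.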

How the results depend on the processing

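No paired analysis was run because the labels give no replicate numbers. Those used here follow the order of the libraries and only name them. Set A holds the same numbers, 1, 2 and 6, in every group, and whether libraries with 1 number belong together was not tested. The library set as a term is no pairing; of the 54 changes below it left 51 calls as they were and added 3. Of 54 log2 fold changes of LPS or time, 54 kept their call, and their direction where called, with a filter of 1 CPM. The count was 52 with DESeq2 (1 of them an uncalled value with the other sign), 50 with limma-voom (1), but 32 on library totals alone (6). That scaling moved the median of all genes at 8 h from -0.064 to -0.834 (WT label) and from -0.058 to -0.878 (KO label), and the share of calls that were higher from 48% to 19.9% and from 48.5% to 19.5%. It reversed the sign of Cs at 2 h, 8 h and 8 against 2 h (-0.0114, -0.22 and -0.21 under the WT label, -0.0701, -0.33 and -0.26 under the KO label). Ogdh changed sign at 8 h and 8 against 2 h (-0.60 and -0.44, WT label, -0.69 and -0.51, KO label), and Mdh2 at 8 h (-0.74, WT label). Slc25a1 changed sign at 8 h and against 2 h under the WT label (-0.0911 and -0.0714). Under the KO label it did so at 2 h, 8 h and 8 against 2 h (-0.004, -0.14 and -0.13). Of these, Cs at 2 h and all values of Slc25a1 were not called on that scale. Within set B, Idh1 was reversed at 2 h (-0.38, WT label) and between labels in controls (-0.33); the genes called were 5 at 2 h (WT label), 2, 3 and 3 between labels and 1 for the interaction at 8 h; the cause was not tested. KO-labelled calls at 2 h were 1 without the BMDM-labelled libraries and 1 with only the groups compared, both with fewer samples. Leaving out 1 library gave 1 to 2 calls there, 2 to 3 at 2 h (WT label), 6 to 8 and 6 to 7 at 8 h (WT and KO label), 6 to 7 for 8 against 2 h under each label, and 0 to 0 between labels and for interactions; without KO-labelled control replicate 2 the 2 h count was 1. Over all genes, calls between labels in controls, at 2 h and at 8 h (16, 3 and 13) ran from 1 to 86, 2 to 9 and 0 to 140 over the other settings, and were 7, 9 and 7 within set A and 1407, 1398 and 4075 within set B; interaction calls at 2 h and 8 h (0 and 0) were 147 and 2162 in set B. Depth limits mainly Acod1 in controls, with as few as 10 counts in a library.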
